A study of Mus musculus with 12 samples.

Results

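A set of 9 genes that encode proteins of the myelin sheath and of mature oligodendrocytes, Mbp, Mog, Mag, Mobp, Cnp, Ugt8a, Cldn11, Ermn and Mal, was followed in RNA from brain tissue beside an intracerebral hemorrhage (ICH). They were taken by symbol from the deposited count table, which holds 21956 genes, and all 9 were found and had enough counts to be tested in every comparison. Their identifiers in the table are ENSMUSG00000041607 (Mbp), ENSMUSG00000076439 (Mog), ENSMUSG00000036634 (Mag), ENSMUSG00000032517 (Mobp), ENSMUSG00000006782 (Cnp), ENSMUSG00000032854 (Ugt8a), ENSMUSG00000037625 (Cldn11), ENSMUSG00000026830 (Ermn) and ENSMUSG00000027375 (Mal).

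The 12 libraries came from 12 mice in 4 groups of 3, namely Sham-Fabp4flox/flox, Sham-Fabp4CKO, ICH-Fabp4flox/flox and ICH-Fabp4CKO. Mice of all 4 groups carried loxP sites around both copies of Fabp4, the gene of a fatty acid binding protein. Fabp4CKO mice also carried TMEM119creERT2, a tamoxifen-inducible Cre recombinase under the control of a microglial gene, and were given tamoxifen ahead of surgery to delete Fabp4 in microglia. Whether the Fabp4flox/flox controls received tamoxifen, and the age and sex of the floxed mice, are not stated in the sources used here. ICH was produced by collagenase injected into the right striatum, sham mice had the operation without collagenase, and tissue was taken 48 h after ICH.

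Oligodendrocytes wrap axons of the brain in layers of membrane that compact into myelin, which speeds conduction and supports the axon. The proteins of this sheath are made from some of the most abundant messenger RNAs of white matter, and the striatum is crossed by bundles of myelinated fibers. Maturing oligodendrocytes turn these genes on together, under transcription factors that include SOX10, MYRF and NKX6-2, whereas their precursors express other genes. Because whole tissue was sequenced, a lower level of a myelin gene can stand for fewer oligodendrocytes in the tissue taken or for less of the RNA in each. Since levels are shares of all counts, it can also stand for more RNA from other cells. A higher level can stand for the reverse of each. These cannot be told apart here.

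The starts of the 4 genes with the smallest p between genotypes after ICH are shown, since the members moved together in that comparison and a reader may want the sequence before their starts. The sequences are from RefSeq on build GRCm38.p6, read 5′ to 3′ on the strand of the gene, and end just before the annotated start, except in Mobp, where the bases inside a longer GENCODE transcript were left out. Capitals mark matches to 4 short motifs named for oligodendrocyte factors. The motifs were ACAAAG (SOX core), CTGGCAC or CTGGTAC (MYRF core), TTAATT (NKX6 core) and CAGCTG (E-box), each searched on both strands.
Mog (chr17:37023399-37023648, - strand): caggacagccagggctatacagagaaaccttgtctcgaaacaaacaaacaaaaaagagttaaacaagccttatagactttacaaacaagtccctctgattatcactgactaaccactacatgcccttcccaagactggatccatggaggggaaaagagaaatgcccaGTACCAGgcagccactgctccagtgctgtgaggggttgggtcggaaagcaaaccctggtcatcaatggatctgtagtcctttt
Mal (chr2:127656696-127656945, - strand): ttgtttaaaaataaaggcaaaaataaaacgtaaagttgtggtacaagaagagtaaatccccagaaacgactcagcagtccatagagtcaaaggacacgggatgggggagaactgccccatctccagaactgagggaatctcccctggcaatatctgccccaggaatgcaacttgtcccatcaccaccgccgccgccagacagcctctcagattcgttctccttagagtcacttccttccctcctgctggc
Cldn11 (chr3:31149670-31149919, + strand): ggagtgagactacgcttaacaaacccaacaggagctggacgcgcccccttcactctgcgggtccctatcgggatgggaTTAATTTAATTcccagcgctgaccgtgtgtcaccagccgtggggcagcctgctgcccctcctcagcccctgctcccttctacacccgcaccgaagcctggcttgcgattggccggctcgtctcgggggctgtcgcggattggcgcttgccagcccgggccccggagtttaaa
Mobp (chr9:120149492-120149706, + strand): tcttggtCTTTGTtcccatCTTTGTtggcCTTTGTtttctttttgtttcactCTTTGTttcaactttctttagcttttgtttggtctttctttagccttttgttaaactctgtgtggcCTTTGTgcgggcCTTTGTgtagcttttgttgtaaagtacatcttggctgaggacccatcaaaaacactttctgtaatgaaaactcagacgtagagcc
Of the 9 members, 8 had a promoter in the RefSeq table, with 10 starts in all. A member was counted if any of its starts held the motif, and Mag had several starts, whereas the percentages are per promoter. The SOX core lay within 250 bases before a start of 3 members (Mobp, Mag and Cnp), and 16.5% of the 32851 promoters in the table hold it. Mobp had 6 copies, all on the strand opposite to the gene. The MYRF core was present in 3 members (Mog, Mag and Cnp) and in 5.93% of all promoters, and in Mog it began 83 bases before the start. The NKX6 core was found in Cldn11 alone, as 2 overlapping copies, against 10.4% of all promoters, and the E-box in none of the 8, against 13.0%. Mal had none of the 4 motifs. These matches describe the letters of the 250 bases searched, which are not printed for Mag and Cnp, and no binding was measured.

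Library totals ranged from 15650822 to 22406226 counts. Fabp4 had 24 to 63 counts in the ICH-Fabp4flox/flox libraries and 3 to 10 in the ICH-Fabp4CKO libraries, and at most 2 in any sham library. Several libraries stood apart in other features, whose effect on the myelin genes was not tested. The Sham-Fabp4flox/flox libraries had a summed level of 866 to 3154 CPM, the count scaled for library depth with edgeR's TMM factors, over 6 choroid plexus and ependymal markers, against 32.4 to 74.3 in the other 9 libraries, and Ttr, the choroid plexus carrier of thyroid hormone, reached 783 to 2929 CPM there and at most 22.7 elsewhere. Within that group, replicate 3 had the highest summed level of 8 striatal neuron markers, at 4427 CPM against 1428 and 1645 in the other two, and the lowest level of every myelin gene. The mitochondrial share of the counts was 10.4 to 16.3% in the ICH-Fabp4flox/flox libraries, highest in replicate 1, and 7.90 to 9.95% in the other 9 libraries, so all 3 ICH-Fabp4flox/flox libraries lay above all others. ICH-Fabp4CKO replicate 1 had 1 read on Y-linked genes, against at least 1302 in the other libraries.

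The 9 members together took 0.793 to 1.37% of all counts in the Sham-Fabp4flox/flox libraries, 0.969 to 1.00% in Sham-Fabp4CKO, 1.68 to 2.37% in ICH-Fabp4flox/flox and 0.588 to 1.04% in ICH-Fabp4CKO. Per kilobase of exon, Mbp was the most abundant, at a mean of 833 ± 248 CPM per kb (SD, n = 3) in Sham-Fabp4flox/flox, and Ugt8a the least, at 32.6 ± 8.29 CPM per kb. Mobp came second at 265 ± 73.2 CPM per kb, followed by Mal at 227 ± 43.2 and Cnp at 195 ± 34.98 CPM per kb, neighbors whose ranges overlapped. Cldn11 at 115 ± 19.1, Mag at 94.3 ± 24.0, Mog at 80.4 ± 24.8 and Ermn at 41.7 ± 11.9 CPM per kb completed the order. From Cldn11 down to Ugt8a each gene overlapped the next in range, whereas Mbp and Mobp, and Cnp and Cldn11, did not overlap. After ICH in Fabp4flox/flox mice Cldn11, at 341 ± 86.6 CPM per kb, had a higher mean than Cnp, at 236 ± 17.5 CPM per kb, with overlapping ranges. Gene lengths are the merged exons of GENCODE M21, which is not stated to be the annotation behind the counts.

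**Figure D1:**
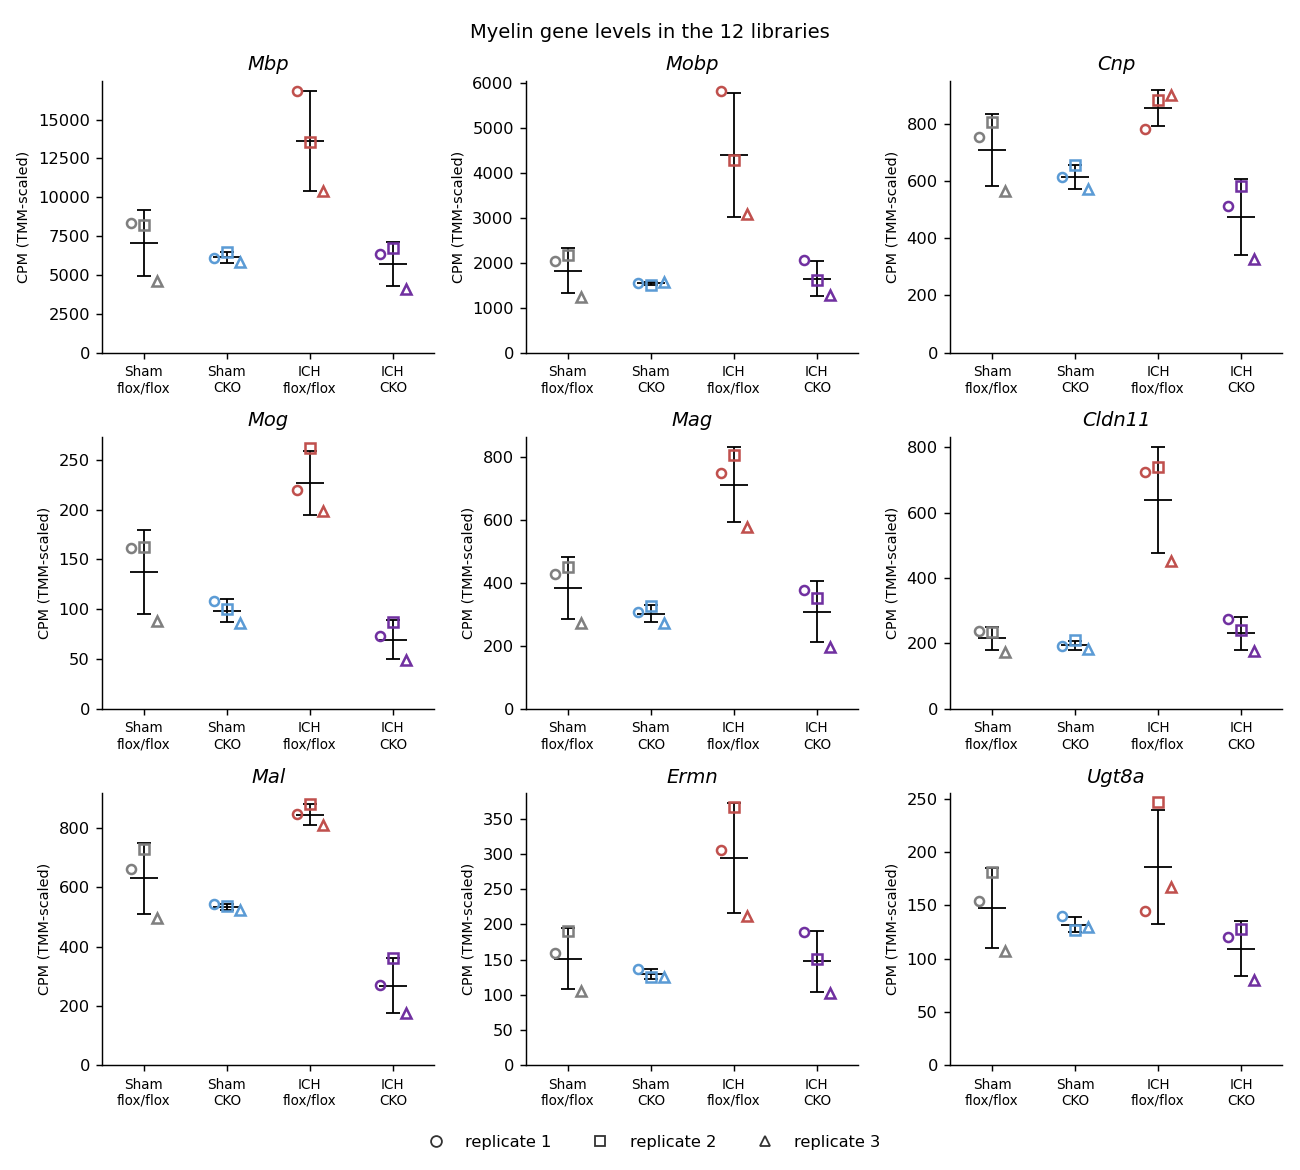
Level of each of the 9 myelin genes in the 12 libraries, in TMM-scaled CPM (vertical axes, from 0), by group (horizontal axes). Symbols are the libraries by replicate number, and black bars are the group mean and SD (n = 3). In all 9 panels the ICH-Fabp4CKO libraries lie below the ICH-Fabp4flox/flox libraries, and Sham-Fabp4flox/flox replicate 3 is the lowest of its group.

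The first question was what ICH did to the myelin genes in mice with intact Fabp4. Here 4 of the 9 members rose, Cldn11, Mobp, Ermn and Mag, and none fell. The background in this comparison was high, as 26.2% of the 14719 genes tested were called higher and 19.3% lower. The median log2 fold change of the 9 members was 0.85, against 0.02 over all genes tested, and all 9 were above 0, as were 50.9% of all genes. Adjusted p-values here and below come from the quasi-likelihood test of edgeR, adjusted by Benjamini-Hochberg over all genes tested. For 7 of the 9, every ICH library lay above every sham library, which held for 34.4% of all genes.

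Among the members of compact myelin, Mbp encodes the basic protein that holds the inner faces of the membrane together. Its level was 8319, 8215 and 4627 CPM in the Sham-Fabp4flox/flox libraries and 16844, 13582 and 10408 CPM in the ICH-Fabp4flox/flox libraries. The groups did not overlap, but the spread within each was wide, and the log2 fold change of 0.90 (SE 0.34) missed the threshold (adjusted p = 0.0610). Mobp, which encodes another basic protein of compact myelin, had 2029, 2179 and 1245 CPM after sham surgery and 5814, 4292 and 3080 CPM after ICH. Each ICH library exceeded all sham libraries, with a log2 fold change of 1.23 (SE 0.32, adjusted p = 0.0190). Mal encodes a proteolipid of myelin membrane rafts, and had 664, 730 and 497 CPM after sham surgery and 848, 881 and 810 CPM after ICH. The ICH libraries were again all higher, but the log2 fold change was only 0.39 (SE 0.20, adjusted p = 0.145).

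Cldn11, the claudin that seals the layers of central myelin, had the smallest p among the members. It had 238, 234 and 174 CPM in the sham libraries and 723, 738 and 450 CPM in the ICH libraries. The lowest ICH library stood well above the highest sham library, and the log2 fold change was 1.52 (SE 0.24, 95% interval 0.96 to 2.08, adjusted p = 0.00272).

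The surface proteins Mag and Mog gave similar shifts with different calls. Mag, a cell adhesion molecule of the inner myelin layer facing the axon, had 429, 451 and 272 CPM after sham surgery and 750, 807 and 579 CPM after ICH. Its groups were separate and its log2 fold change was 0.85 (SE 0.24, adjusted p = 0.0255). Mog, found on the outermost layer, had 161, 162 and 88.3 CPM after sham surgery and 220, 262 and 198 CPM after ICH. These groups were separate too, but the log2 fold change of 0.69 (SE 0.26) did not pass (adjusted p = 0.0604).

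The remaining members act inside the oligodendrocyte. Ermn encodes ermin, a cytoskeletal protein of late maturation, and had 159, 191 and 105 CPM after sham surgery and 306, 367 and 212 CPM after ICH. It rose with a log2 fold change of 0.92 (SE 0.28, adjusted p = 0.0308) and no overlap of the groups. Cnp encodes the phosphodiesterase of non-compacted myelin, and had 756, 807 and 566 CPM after sham surgery and 785, 884 and 903 CPM after ICH. Ugt8a, the enzyme that makes the galactolipid of myelin, had 154, 182 and 107 CPM after sham surgery and 144, 247 and 167 CPM after ICH. For both the groups overlapped, with log2 fold changes of 0.24 (95% interval -0.24 to 0.71) and 0.29 (95% interval -0.33 to 0.92).

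The number of members called in Fabp4flox/flox mice depended on single libraries. Only Cldn11 passed without Sham-Fabp4flox/flox replicate 1 or 3 or without ICH-Fabp4flox/flox replicate 2, where 19.8, 20.4 and 18.2% of all genes were called higher. The count was 2 without Sham-Fabp4flox/flox replicate 2 or ICH-Fabp4flox/flox replicate 1, against 17.6 and 20.9% of all genes, and 5 without ICH-Fabp4flox/flox replicate 3, against 28.9%. DESeq2 and a fit of all 12 libraries each called 6, adding Mbp and Mog, where they called 26.6 and 29.0% of all genes higher. Cldn11 passed in all 6 fits that left out 1 library, with adjusted p from 0.000582 to 0.0176. Marker levels of other cells moved with these values, namely the choroid plexus markers of all 3 sham libraries and the striatal markers, which ranged from 1214 to 3784 CPM in the ICH libraries and were highest in the one with the lowest Mbp. The mitochondrial share was also higher in all 3 ICH libraries than in the sham libraries. Their part in the result was not tested.

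In Fabp4CKO mice the same comparison of ICH with sham called 1 member, Mal, which fell, where 11.1% of the 14737 genes tested were called lower and 24.5% higher. The median log2 fold change of the 9 members was -0.10, against 0.01 over all genes, with 4 members above 0 and 5 below. Mal had 544, 536 and 524 CPM in the Sham-Fabp4CKO libraries and 269, 362 and 174 CPM in the ICH-Fabp4CKO libraries. All ICH libraries lay below the narrow range of the sham libraries, as was the case for 28.9% of all genes, with a log2 fold change of -0.99 (SE 0.27, adjusted p = 0.0360). Adjusted p ranged from 0.000752 to 0.114 when 1 library was left out. Mal missed the threshold with any one of the sham libraries left out, where 0.341, 0.5 and 0.335% of all genes were called lower, and without ICH-Fabp4CKO replicate 1, where 0.993% were. It passed without replicate 3 of ICH-Fabp4CKO (4.68% of all genes) and, together with Mog and Cnp, without replicate 2 (32.7%).

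For the other compact myelin members the ICH libraries spread around the range of the sham libraries. Mbp had 6068, 6485 and 5817 CPM in Sham-Fabp4CKO and 6318, 6722 and 4103 CPM in ICH-Fabp4CKO, and its log2 fold change was -0.10 (95% interval -0.74 to 0.54). Mobp had 1554, 1507 and 1571 CPM after sham surgery and 2052, 1605 and 1276 CPM after ICH, with a log2 fold change of 0.09 (95% interval -0.44 to 0.63). In both genes ICH-Fabp4CKO replicate 3 was the lowest library of all 6.

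Cldn11 had 191, 210 and 183 CPM in Sham-Fabp4CKO and 276, 240 and 176 CPM in ICH-Fabp4CKO. The highest and the lowest of the 6 libraries were both ICH libraries, and the log2 fold change was 0.25 (95% interval -0.22 to 0.71). Mag, with 307, 327 and 272 CPM after sham surgery and 377, 351 and 197 CPM after ICH, gave 0.03 (95% interval -0.60 to 0.67). Mog, with 109, 101 and 86.2 CPM after sham surgery and 72.7, 86.8 and 48.7 CPM after ICH, gave -0.50 (95% interval -1.05 to 0.05). For Mag the direction was not stable, since without TMM scaling it was -0.03.

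Of the members that act inside the cell, Ermn had 137, 126 and 126 CPM in Sham-Fabp4CKO and 189, 151 and 102 CPM in ICH-Fabp4CKO, with a log2 fold change of 0.19 (95% interval -0.37 to 0.75). Cnp had 613, 657 and 571 CPM after sham surgery and 513, 583 and 328 CPM after ICH, with a log2 fold change of -0.37 (95% interval -0.94 to 0.20). Ugt8a had 140, 127 and 129 CPM after sham surgery and 120, 128 and 80.1 CPM after ICH, with a log2 fold change of -0.27 (95% interval -0.74 to 0.21). Their groups overlapped, and the intervals leave room for changes of either sign.

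**Figure D2:**
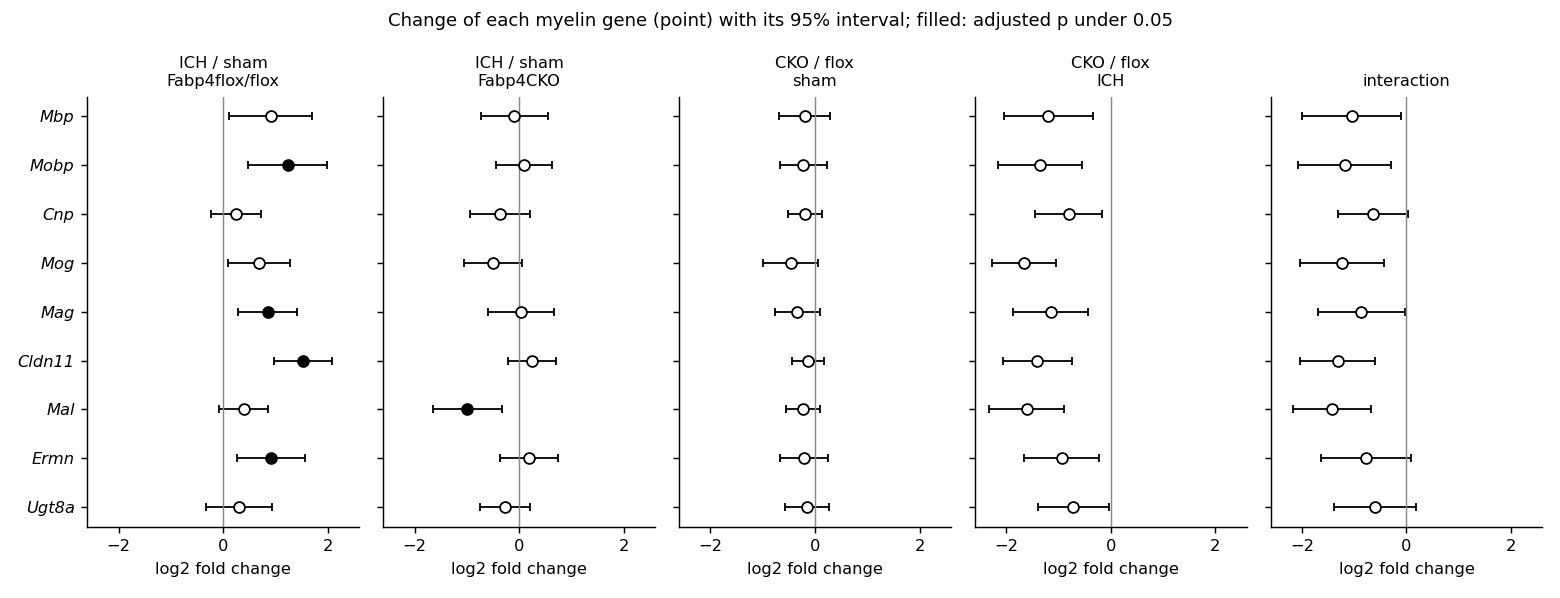
Log2 fold change of each myelin gene (points) with its 95% interval (bars) in the 4 comparisons and for the interaction of ICH and genotype. Filled points passed an adjusted p of 0.05, which 4 genes did for ICH against sham in Fabp4flox/flox mice and Mal did in Fabp4CKO mice. For CKO against flox after ICH all 9 intervals lie below 0, though no adjusted p passed.

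The next question was whether the genotypes differed after ICH. All 9 members were lower in ICH-Fabp4CKO than in ICH-Fabp4flox/flox, in every library, but none passed the adjusted threshold, and neither did any of the 14600 genes tested (0.0% called lower, 0.0% higher). At an unadjusted p under 0.05 all 9 members were lower, as were 5.82% of all genes, and every CKO library lay below every flox library for 11.5% of all genes. The median log2 fold change of the members was -1.19, against 0.06 over all genes. This comparison uses the same ICH-Fabp4flox/flox and ICH-Fabp4CKO libraries as the comparisons with sham above, so it is not separate evidence.

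Mog differed most, with 198 to 262 CPM in ICH-Fabp4flox/flox and 48.7 to 86.8 CPM in ICH-Fabp4CKO, a log2 fold change of -1.65 (SE 0.26, 95% interval -2.27 to -1.04, adjusted p = 0.231). Mal followed at -1.60 (SE 0.30, adjusted p = 0.295), from 810 to 881 CPM in the flox libraries against 174 to 362 CPM in the CKO libraries. Cldn11 gave -1.41 (SE 0.28, adjusted p = 0.295), Mobp -1.36 (SE 0.33), Mbp -1.19 (SE 0.36) and Mag -1.15 (SE 0.30). The smallest differences were those of Ermn at -0.94 (SE 0.30), Cnp at -0.80 (SE 0.27) and Ugt8a at -0.71 (SE 0.29, 95% interval -1.40 to -0.03, adjusted p = 0.395).

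The call in this comparison depended on the tool. DESeq2 called 6 members lower (Mog, Mal, Cldn11, Mobp, Mbp and Mag), where it called 2.21% of all genes lower, and edgeR with all 12 libraries in one fit called 5 (the same without Mbp), where it called 1.38% lower. With any 1 library left out, edgeR called 0 members, and their median log2 fold change stayed between -1.37 and -1.002. Without ICH-Fabp4CKO replicate 1, the library with 1 Y-linked read, the median was -1.32. The mitochondrial share of the counts separated the same groups, at 10.4 to 16.3% in ICH-Fabp4flox/flox and 7.90 to 9.50% in ICH-Fabp4CKO. Markers of endothelial and mural cells were lower along with the members, with 7 of 8 below 0, 6 of 8 lower at an unadjusted p under 0.05 and a median log2 fold change of -1.03, and their summed level was 743 to 1527 CPM in ICH-Fabp4flox/flox and 412 to 642 CPM in ICH-Fabp4CKO. For the interaction 7 of these 8 were below 0 and 5 had an unadjusted p under 0.05, with a median of -0.82. The 9 microglial and macrophage markers had a median of 0.80 between genotypes after ICH, with 7 above 0. The part of these in the difference was not tested.

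In sham mice the genotypes differed less. None of the 9 members was called, where edgeR called 0.111% of the 14395 genes tested lower and 0.0% higher, and none had an unadjusted p under 0.05, which 6.07% of all genes had in the lower direction. The members' log2 fold changes for Fabp4CKO against Fabp4flox/flox ran from -0.47 (Mog, 95% interval -0.99 to 0.06) to -0.14 (Cldn11, 95% interval -0.44 to 0.17), with a median of -0.21 against 0.00 over all genes. This rested on 1 library. Without Sham-Fabp4flox/flox replicate 3, the library with few myelin reads and high striatal markers, 8 of the 9 members were called lower, all but Cldn11, with a median of -0.42, and of all genes 9.12% were called lower and 10.5% higher. With 1 of the other libraries left out, 0 members were called.

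The interaction compares the change after ICH between the genotypes in one fit of all 12 libraries. It was below 0 for all 9 members, with a median of -1.05 against 0.03 over all genes, and 47.3% of all genes were below 0. None of the members passed, where 0.00663% of the 15089 genes tested were called lower and 0.0133% higher, and 6 members had an unadjusted p under 0.05, as did 4.37% of all genes in that direction. Mal had the largest value, -1.42 (SE 0.34, 95% interval -2.16 to -0.68, adjusted p = 0.250), followed by Cldn11 at -1.32 (SE 0.32, adjusted p = 0.263) and Mog at -1.23 (SE 0.37, adjusted p = 0.326). Ugt8a had the smallest, -0.60 (95% interval -1.39 to 0.18). DESeq2 called Mal and Cldn11 (adjusted p = 0.00711 and 0.0161), where it called 0.550% of all genes lower. With edgeR, Mal alone passed without ICH-Fabp4CKO replicate 2 (adjusted p = 0.0249), where 0.725% of all genes were called lower.

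The members did not move by the same amount, which can be read within each library free of anything that scales all of them alike. Each member was set against the mean log2 CPM of the 9 in its own library, as a description with no test. That mean includes the member itself, so gains of some members go with losses of others. How often groups separate in this way over all genes was not counted. Cldn11 gained on the others after ICH, by 0.71 in Fabp4flox/flox and 0.45 in Fabp4CKO mice, and in both genotypes every ICH library lay above every sham library. Relative to the set Mal lost, by -0.39 and -0.83, and Cnp lost, by -0.55 and -0.19, with separate groups in both genotypes. In Fabp4flox/flox mice these were not falls in level, since all 9 members had log2 fold changes above 0 there. Mobp moved by 0.44 and 0.29, with separate groups in Fabp4flox/flox mice only. Mbp moved by 0.14 and 0.09, and Mag by 0.08 and 0.20.

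Ugt8a shifted in Fabp4flox/flox mice, by -0.50, and little in Fabp4CKO mice, by -0.07. In ICH-Fabp4flox/flox replicate 1, the library with the most mitochondrial counts, Ugt8a and Cnp stood lowest and Mobp and Mbp highest relative to the set. Mog was lower relative to the set in ICH-Fabp4CKO than in ICH-Fabp4flox/flox, by -0.46, and Mal by -0.44. Ermn gained after ICH in Fabp4CKO mice, by 0.37, with separate groups, and by 0.13 in Fabp4flox/flox mice, where they overlapped.

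**Figure D3:**
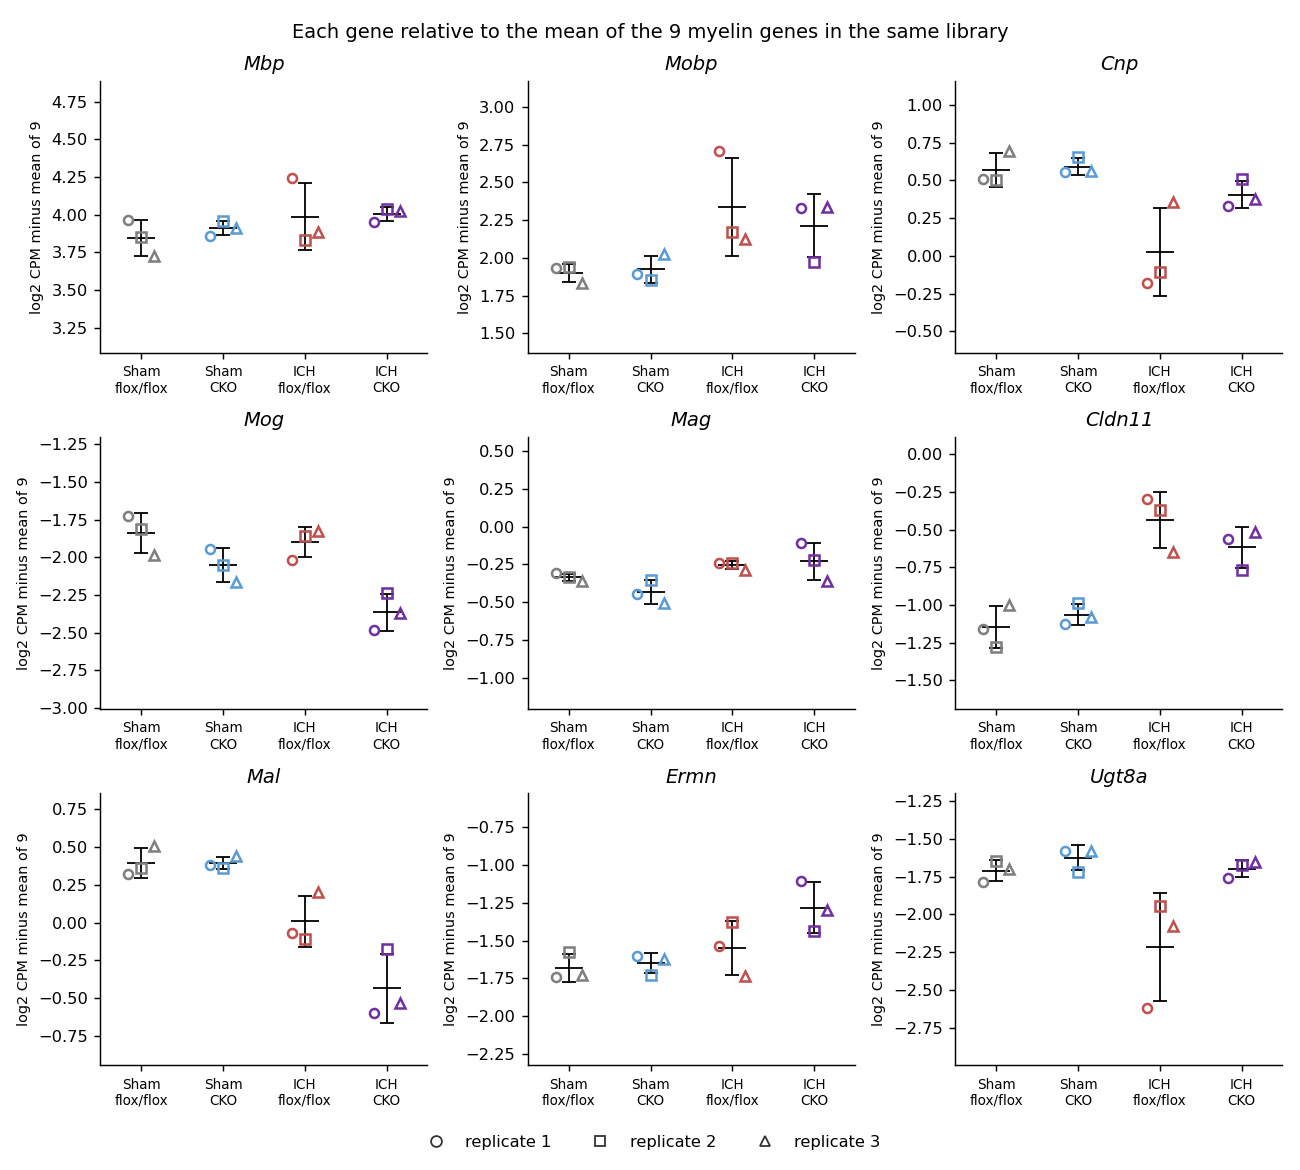
Log2 CPM of each myelin gene minus the mean log2 CPM of the 9 genes in the same library (vertical axes, spanning the same range of log2 units in each panel), by group. Symbols are libraries by replicate number, and black bars are the group mean and SD (n = 3). Cldn11 lies higher, and Mal and Cnp lower, in the ICH libraries than in the sham libraries of both genotypes.

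Other genes of the oligodendrocyte lineage were read from lists, whose counts stand against 26.2% of all genes called higher and 19.3% lower after ICH in Fabp4flox/flox mice, and 24.5 and 11.1% in Fabp4CKO mice. Of 34 further genes of mature oligodendrocytes and myelin, 9 rose and 0 fell after ICH in Fabp4flox/flox mice (median log2 fold change 0.46), and 6 rose and 0 fell in Fabp4CKO mice (median -0.12), so the share that rose was near that of all genes in Fabp4flox/flox mice and below it in Fabp4CKO mice. The genes with the smallest p rose in both genotypes. Klk6, a secreted protease of oligodendrocytes, had 7.49 to 22.8 CPM in Sham-Fabp4flox/flox and 189 to 476 CPM in ICH-Fabp4flox/flox, with a log2 fold change of 4.38 (adjusted p = 0.000874), against 2.92 in Fabp4CKO mice (adjusted p = 0.00478). Cd9, a tetraspanin that microglia also express, had 2.66 and 2.70, and Trf, the iron carrier transferrin, had 2.43 and 1.62, all 4 past the threshold. The interaction did not pass for any of the 34 genes with edgeR, and DESeq2 called 1 of them lower.

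Between the genotypes after ICH, the 34 genes had a median log2 fold change of -0.80, with 30 below 0 and 24 lower at an unadjusted p under 0.05, against 43.8 and 5.82% of all genes. None was called by edgeR on the 6 libraries compared, the edgeR fit of all 12 libraries called 7 of them lower (1.38% of all genes), and DESeq2 called 12 (2.21% of all genes). Klk6 gave -2.20 (adjusted p = 0.269), Trf -1.13 (adjusted p = 0.347) and Cd9 -0.18 (adjusted p = 0.876).

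Of 10 transcription factors of the lineage, 5 rose and 1 fell after ICH in Fabp4flox/flox mice (median 0.52), and 1 rose and 1 fell in Fabp4CKO mice (median -0.34). Nkx2-2, a factor of differentiating oligodendrocytes, rose by a log2 fold change of 1.08 (adjusted p = 0.00373) and Sox10, the lineage factor that activates myelin genes, by 0.80 (adjusted p = 0.0126). Nkx6-2, a factor of myelinating cells, rose by 0.67 (adjusted p = 0.0143). In Fabp4CKO mice these 3 gave 0.26, 0.17 and -0.47, none past the threshold. Tcf7l2, which thalamic neurons express as well as maturing oligodendrocytes, fell by 2.67 on the log2 scale in Fabp4flox/flox mice (adjusted p = 0.0158). It ranged from 21.8 to 153 CPM in the Sham-Fabp4flox/flox libraries, those with the choroid plexus markers, and from 10.1 to 43.4 CPM in the other 9. Between genotypes after ICH the 10 factors had a median of -0.54, with 9 below 0, against 43.8% of all genes. At an unadjusted p under 0.05, 5 were lower, against 5.82% of all genes. On the 6 libraries edgeR called 0, and the fit of all 12 libraries and DESeq2 each called 3 lower (1.38 and 2.21% of all genes). For the interaction DESeq2 called 3 lower (0.550% of all genes) and edgeR called 0.

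Of 12 genes of precursors and newly committed cells, 4 rose in Fabp4flox/flox mice and 5 in Fabp4CKO mice, and none fell in either, against the 26.2 and 24.5% of all genes that rose. Vcan, a matrix proteoglycan, rose by 1.56 (adjusted p = 0.00421) and 1.63, and Cspg4, the NG2 proteoglycan, by 0.98 (adjusted p = 0.00678) and 1.57. Bcas1, a gene of early myelinating cells, rose by 1.28 (adjusted p = 0.0213) and 0.80. All 3 passed in Fabp4CKO mice as well. Within the ICH-Fabp4CKO libraries Vcan ranged from 43.8 to 102 CPM and Cspg4 from 38.2 to 111 CPM. Which cells this RNA came from was not tested. After ICH the median difference between genotypes over this list was 0.17, with 4 genes below 0. It was -1.19 over the 9 members and -0.54 over the 10 transcription factors.

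Of 12 enzymes that make or break down myelin lipids, 5 rose and 1 fell in Fabp4flox/flox mice and 4 rose and 1 fell in Fabp4CKO mice. Asah1, the lysosomal acid ceramidase, rose by 1.38 and 2.38, Elovl1, which elongates fatty acids, by 1.52 and 1.71, and Cers2, the ceramide synthase of long acyl chains, by 0.89 and 0.97. Ugcg, which makes glucosylceramide, fell by 0.79 and 0.55 on the log2 scale. The enzymes named here are not particular to oligodendrocytes. In the same comparisons all 9 markers of microglia and macrophages rose, in Fabp4flox/flox and in Fabp4CKO mice. Between genotypes after ICH the log2 fold changes of the 12 enzymes ran from -1.02 to 1.29, with a median of -0.21. Of them 8 were below 0, against 43.8% of all genes. At an unadjusted p under 0.05, 3 were lower and 1 higher, against 5.82 and 6.36% of all genes, and no adjusted p passed. What share of each change came from which cells was not tested.

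Of 7 genes of peripheral nerve myelin, 5 had enough counts to be tested. Pmp2, a fatty acid binding protein of peripheral myelin, had at most 0.187 CPM in any library. Pmp22, which other cell types also express, rose by 1.73 in Fabp4flox/flox (adjusted p = 0.00558) and 2.13 in Fabp4CKO mice, and Egr2, also an immediate early gene of neurons, fell by 1.86 on the log2 scale in Fabp4flox/flox mice (adjusted p = 0.00862).

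**Figure D4:**
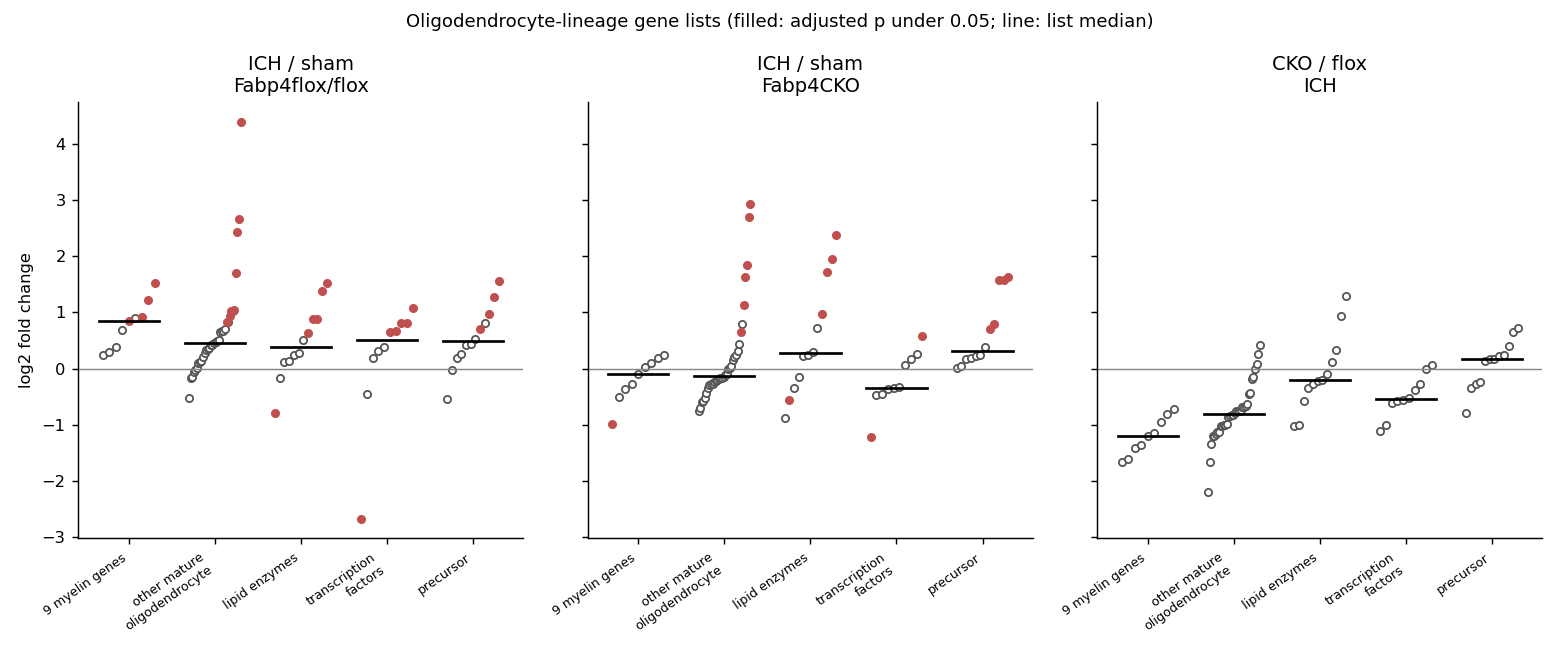
Log2 fold change of each gene (points) in 5 gene lists of the oligodendrocyte lineage for 3 comparisons. Filled points passed an adjusted p of 0.05 and lines are list medians. In Fabp4CKO mice the medians of the 9 myelin genes and of the 34 other mature genes are -0.10 and -0.12, against 0.85 and 0.46 in Fabp4flox/flox mice.

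Among the genes whose pattern was most like the mean of the 9 members, by the root mean square difference of centered log2 CPM over the 12 libraries, were Srd5a1 (0.08), Pllp (0.12), S1pr5 (0.13) and Cryab (0.13), out of 15080 genes ranked. Srd5a1, a steroid reductase that was on none of the lists, had 12 to 20.7 CPM in Sham-Fabp4flox/flox, 14.1 to 15.1 in Sham-Fabp4CKO, 27.8 to 36.2 in ICH-Fabp4flox/flox and 10.2 to 15.8 in ICH-Fabp4CKO. The other three encode plasmolipin, a sphingosine phosphate receptor and the small heat shock protein alpha-B-crystallin. They were chosen for this likeness, which is therefore no test.

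Markers of other cell types were measured beside the members. Their counts after ICH stand against 26.2% of all genes called higher and 19.3% lower in Fabp4flox/flox mice, and 24.5 and 11.1% in Fabp4CKO mice. In Fabp4flox/flox mice 8 of 10 neuron markers fell after ICH and 0 of 8 striatal neuron markers passed, and in Fabp4CKO mice 2 neuron markers (Nefm and Tubb3) and 2 striatal markers fell. The median log2 fold changes of the neuron markers were nonetheless similar, at -1.20 in Fabp4flox/flox and -1.17 in Fabp4CKO mice. At an unadjusted p under 0.05, 9 and 8 of them were lower, against 24.9 and 22.2% of all genes. The striatal medians were -0.37 and -1.10. Of 8 astrocyte markers 3 rose in each genotype, and all 6 tested leukocyte markers rose in both. All 8 endothelial and mural markers rose in Fabp4flox/flox and 4 in Fabp4CKO mice, and of 5 tested erythroid markers 3 and 0 passed as higher. All 5 erythroid markers were above 0 in both genotypes, with median log2 fold changes of 1.38 in Fabp4flox/flox and 2.88 in Fabp4CKO mice. The summed erythroid level in ICH-Fabp4CKO was 1116 CPM in replicate 1, 143 in replicate 2 and 120 in replicate 3. Of the 6 choroid plexus and ependymal markers 5 fell in Fabp4flox/flox mice, and 3 of the 5 tested fell in Fabp4CKO mice. Microglial and macrophage RNA varied widely among the ICH-Fabp4CKO libraries. Replicate 3 had a summed level of 7830 CPM over 9 microglial and macrophage markers and 6485 CPM over the 9 myelin genes, and replicate 1 had 5180 and 10187 CPM. Replicate 2 had 2268 and 10229 CPM, and the ICH-Fabp4flox/flox libraries had 2248 to 2836 and 16807 to 26434 CPM. Replicate 2 of ICH-Fabp4CKO differed from the ICH-Fabp4flox/flox libraries in other markers too. Its neuron markers summed to 4531 CPM, against 1640 to 3552 in those libraries, and its endothelial and mural markers to 412 CPM, against 743 to 1527. The part of tissue composition in the difference between genotypes was not tested.

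**Figure D5:**
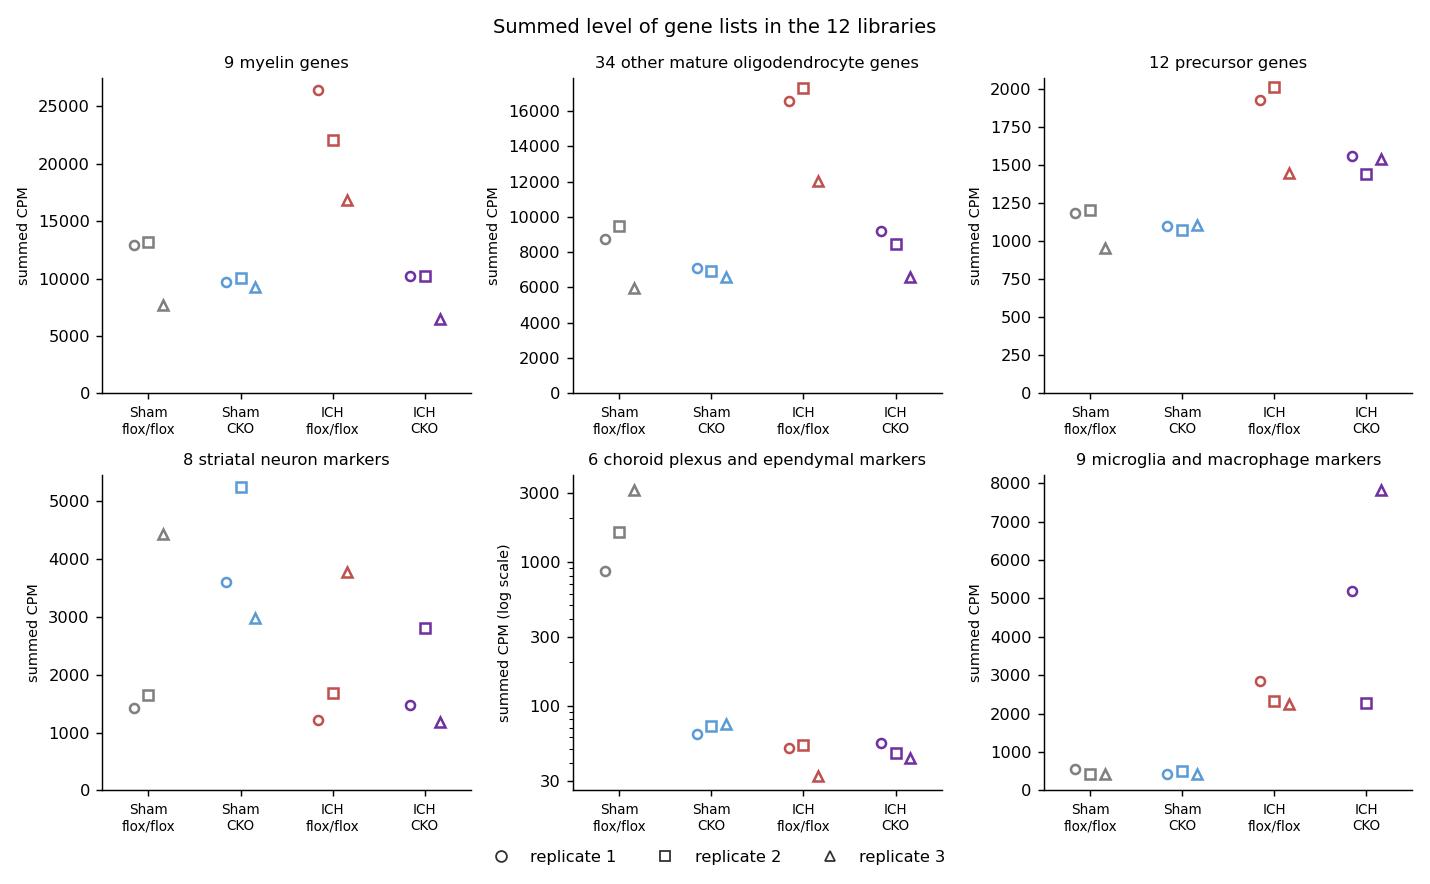
Summed TMM-scaled CPM of 6 gene lists in each library (vertical axes from 0, except the choroid plexus panel, which is on a log scale), by group. The choroid plexus and ependymal markers are at 866 to 3154 CPM in Sham-Fabp4flox/flox only, and the striatal markers are highest where the myelin genes are lowest among the Sham-Fabp4flox/flox and among the ICH-Fabp4flox/flox libraries, whereas in both Fabp4CKO groups they are highest in replicate 2, which has the highest level of the myelin genes.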

How the data were processed

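RNA from perihematomal tissue was poly(A)-selected and read on a NovaSeq. For 12 libraries the authors deposited a table of estimated counts (expected counts) per gene that were not normalized. The submitters' processing notes name Bowtie2 2.2.8, HISAT2, StringTie 1.3.1 and DESeq2 without their roles, and the build, the annotation and the use of strand are not given in the sources used here. Exons of Cnp and Ermn overlap antisense genes (Dnajc7 and Galnt5) over 4.23 and 6.52% of their length in GENCODE M21, so reads there could be shared.

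Counts were rounded to whole numbers and tested with edgeR 4.0.16 under R 4.3.3. Low genes were removed by filterByExpr (10 counts per library, 15 in total), scaling was by TMM, and the quasi-likelihood F-test was adjusted by Benjamini-Hochberg over all genes (threshold 0.05), on the 6 libraries compared, or on all 12 for the interaction. CPM are TMM-scaled, and log2 CPM has a prior count of 2. The 95% intervals come from the same fits. Each group holds 3 mice, and no 2 libraries were close enough to be copies. Same-numbered libraries did not vary together throughout, so they were not paired. The script was tested on simulated data.

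The members and the gene lists were chosen with earlier results of these data known. Named genes are the 9 members, Fabp4, the 5 genes most like the members, and from each list the 3 genes per direction with the smallest p past the threshold for ICH against sham in Fabp4flox/flox mice. Of the marker lists of other cell types only counts are given, except for Ttr, and Nefm and Tubb3, outside that rule, were chosen after their values were seen. Some genes within the rule are not reported here. Alternatives were relative log expression scaling, total counts, TMM without the lineage genes, DESeq2 1.42.0, no filter, a stricter filter (every library at 10 counts or more), a replicate block, a joint fit of the 12 libraries, and each library left out.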

Additional observations from a re-analysis of the deposited data

Results flagged for a closer look

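For 1 myelin gene, Mal, the ICH and sham libraries were separate in opposite directions in the genotypes. Each ICH-Fabp4flox/flox library (810 to 881 CPM) lay above each Sham-Fabp4flox/flox library (497 to 730 CPM), and each ICH-Fabp4CKO library (174 to 362 CPM) lay below each Sham-Fabp4CKO library (524 to 544 CPM). Such separation held for 34.4% of all genes as higher in Fabp4flox/flox mice and for 28.9% as lower in Fabp4CKO mice. The interaction was -1.42 on the log2 scale (SE 0.34, adjusted p = 0.250 with edgeR, and 0.00711 with DESeq2), so the difference passed with one tool and not with the other. Over the edgeR fits that left out 1 library, the interaction ranged from -1.70 to -1.18, with adjusted p from 0.0249 to 0.564. In the separate comparisons only the decrease in Fabp4CKO mice passed in edgeR (adjusted p = 0.0360, against 0.145 for the higher level in Fabp4flox/flox mice). With 1 library left out, the adjusted p of that decrease ranged from 0.000752 to 0.114. It missed the threshold with any 1 of the Sham-Fabp4CKO libraries left out and without ICH-Fabp4CKO replicate 1.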

How the results depend on the processing

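With 3 mice a group, single libraries decided several calls. The number of members called, with 1 library left out, ranged from 1 to 5 for ICH against sham in Fabp4flox/flox mice, from 0 to 3 in Fabp4CKO mice, from 0 to 8 between genotypes in sham mice and from 0 to 1 for the interaction, and stayed at 0 between genotypes after ICH. The fits with the highest counts, 5, 3, 8 and 1, called 28.9% of all genes higher in the first and 32.7, 9.12 and 0.725% lower in the others. Between genotypes after ICH, DESeq2 called 6 members and the fit of all 12 libraries called 5 (2.21 and 1.38% of all genes were called lower). For the interaction DESeq2 called 2 (0.550% of all genes). With the replicate block the counts were 6 in Fabp4flox/flox mice (27.0% of all genes were called higher), 1 in Fabp4CKO mice (7.5% were called lower) and 0 in the other comparisons. The numbers were not taken as pairs, since deviations of same-numbered libraries correlated between -0.575 and 0.311 across genes. For ICH against sham in Fabp4CKO mice, Mag was 0.032 and turned to -0.032 on total counts and to -0.019 with the replicate block. With 1 library left out there, Mag ranged from -0.15 to 0.25, Mbp from -0.23 to 0.067, Mobp from -0.11 to 0.22 and Ermn from -0.043 to 0.37. Ugt8a between genotypes in sham mice ranged from -0.33 to 0.029. The medians of the 9 members kept their sign under every alternative tried other than leaving out a library, and the cause of the changes in calls was not tested.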
